A study of Rattus norvegicus with 6 samples.

Results

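Nuclei that the study annotated as T cells were compared with nuclei annotated as enterocytes in the colons of the same rats, by single-nucleus RNA sequencing (snRNA-seq, droplet-based counting of unique molecular identifiers, UMIs, in isolated nuclei). The members were all nuclei of both cell types from the sham and PL8177 groups, 216 T cell nuclei and 5823 enterocyte nuclei, together 6039 of the 9800 nuclei in the files. The rats were male Wistar rats of wild-type genotype. The 3 sham rats (GR12, GR13 and GR15) drank water only, and the 3 PL8177 rats (GR41, GR43 and GR44) received 5% dextran sulfate sodium (DSS) in the water for 3 days. Those rats then drank normal water and were given capsules with 50 µg of PL8177, a melanocortin receptor agonist, by gavage from day 4 to day 7, with the doses of a day 6 h apart. Sham and PL8177 rats therefore differed in DSS and in capsule together, which cannot be told apart here, and the DSS rats with placebo capsules were not used. Ages were not given. The rat tags were read from the names of the nuclei, and the UMIs of each rat were added up by cell type into 12 sums, 6 pairs of T cells and enterocytes from the same rat. The melanocortin receptors were not analysed here.

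Enterocytes of the colon form a polarised epithelium with a brush border of microvilli held up by villin, with tight junctions and keratins, and with apical exchangers such as Slc26a3, which moves chloride against bicarbonate. T cells lie within and beneath this epithelium. They recognise antigen through a receptor whose CD3 and zeta (Cd247) chains pass the signal to Lck, to adaptors such as Lcp2 and to Themis, while CD45 (Ptprc) sets the activity of Lck, and they move and adhere through integrins and leukocyte-specific regulators of actin.

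The study assigned the cell types from clusters of these same counts, so a gene that differs between them describes the annotation and its repeatability over rats and is no independent evidence. T cell sums held 8307 to 241194 UMIs from 19 to 74 nuclei, and enterocyte sums held 448970 to 4123319 UMIs from 708 to 1531 nuclei. The sham rat GR12 stood apart, with 62.7% of all T cell UMIs and 87.2% of the T cell UMIs of the sham group. Only 2 barcodes occurred in more than 1 library, in 4 nuclei, and 0 nuclei were listed under both cell types of a library.

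The labels were described with defining genes, which the annotation could have used. The level of a gene is given as its UMIs per 10000 UMIs of a sum. Cd247 had a lowest level of 2.41, a median of 3.90 and a highest of 6.68 in the 6 T cell sums. In the enterocyte sums it ranged from 0 to 0.0202, with a median of 0.00956. The difference was 8.35 ± 0.43 on the log2 scale (approximate SE from the fit over 6 rats), on 9 enterocyte UMIs, with 0 in GR13 and GR41. A gene so rare in enterocytes passed the filter on low counts only through T cells, so its separation was set in advance. Themis spread most, from 0.402 in GR41 to 8.53 in GR15, against 0 to 0.0202 in enterocytes, and Ptprc ran from 4.82 in GR15 to 20.6 in GR12, against 0.00559 to 0.179. Ptprc UMIs were found in 54.2% of the T cell nuclei and in 1.22% of the enterocyte nuclei, a cell type that should lack it, at medians of 885.5 and 1001 UMIs per nucleus. With every nucleus thinned to 300 UMIs, which kept 197 T cell and 5364 enterocyte nuclei, these shares were 34.5% and 0.336%.

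The 3 enterocyte genes separated the labels less sharply. Slc26a3 had levels of 74.3 to 145 (median 85.7) in the enterocyte sums and of 2.11 to 35.4 (median 18.7) in the T cell sums, with 2.11 in GR12 and 35.4 in GR44. The difference, T cells minus enterocytes here and throughout, was -3.18 ± 0.30 on the log2 scale, and T cells were lower in all 6 rats. Krt20, a keratin of surface enterocytes, ran from 13.6 to 81.3 against 1.82 to 19.3, so that the highest T cell sum (GR13) lay above the lowest enterocyte sum (GR43), although enterocytes were higher within each of the 6 rats. Vil1, the microvillus protein villin, ran from 2.79 to 9.04 against 0 to 3.61. The T cell genes thus did not overlap between the cell types, which the filter set, while T cell sums held UMIs of the 3 enterocyte genes, except Vil1 in GR44. Slc26a3, Krt20 and Vil1 were found in 34.3%, 21.8% and 14.8% of T cell nuclei, against 82.4%, 71.9% and 42.8% of enterocyte nuclei. Thinned to 300 UMIs, these shares were 18.8%, 8.12% and 3.05% against 68.7%, 40.2% and 14.0%. The Krt20 level of T cells in GR13 rested on 16 UMIs.

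**Figure D1:**
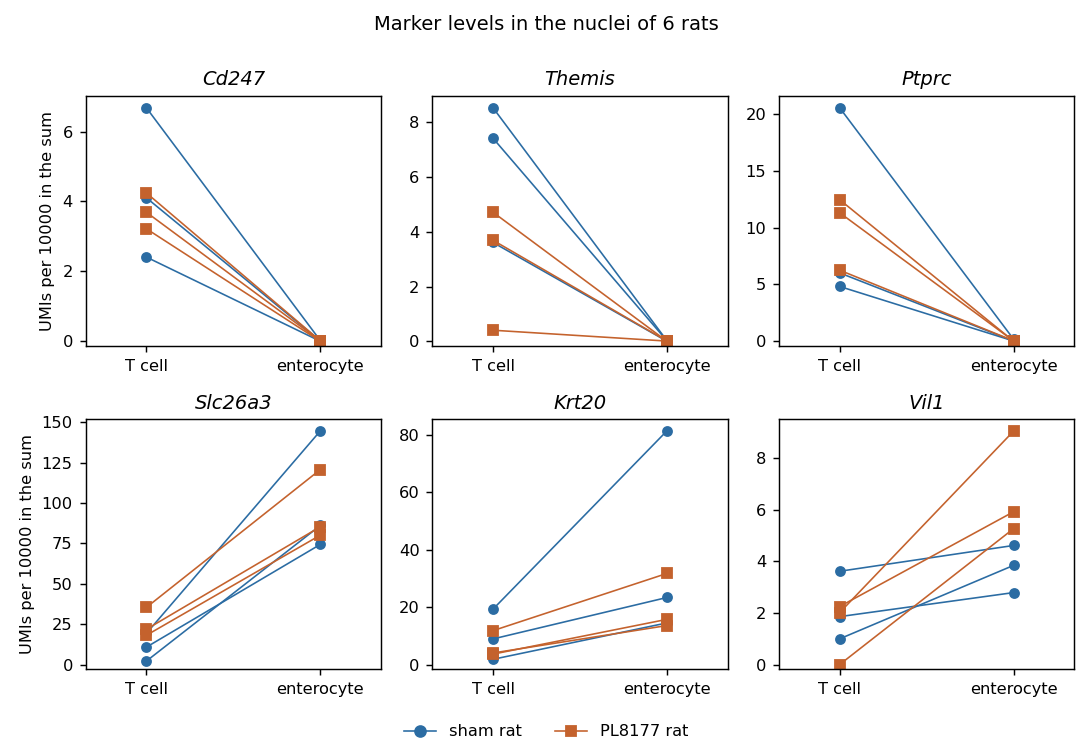
Levels (UMIs per 10000 in a sum, linear axes from 0) of 3 T cell genes and 3 enterocyte genes; each line joins the T cell and enterocyte sums of 1 rat, blue circles for sham and orange squares for PL8177. Cd247, Themis and Ptprc lay near 0 in every enterocyte sum, whereas Slc26a3 stayed between 2.11 and 35.4 in T cell sums.

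The promoters of 4 genes with large differences are shown because each holds letters that match a short motif of a factor family known from its cell type. They are RefSeq sequences (build GRCr8, first listed promoter of each gene, 250 bases before to 50 bases after the start, read along the gene), whereas the counts rest on an earlier rat assembly. Capitals mark the ETS letters AGGAAGT in Cd247 (chr13:80576019-80576318, plus strand) and Ptprc (chr13:52259697-52259996, minus strand), the CDX letters TTTATNG in Krt20 (chr10:84890236-84890535, minus strand) and the HNF4 letters CAAAGTCCA in Trpv6 (chr4:71489618-71489917, minus strand), each searched on both strands.
Cd247: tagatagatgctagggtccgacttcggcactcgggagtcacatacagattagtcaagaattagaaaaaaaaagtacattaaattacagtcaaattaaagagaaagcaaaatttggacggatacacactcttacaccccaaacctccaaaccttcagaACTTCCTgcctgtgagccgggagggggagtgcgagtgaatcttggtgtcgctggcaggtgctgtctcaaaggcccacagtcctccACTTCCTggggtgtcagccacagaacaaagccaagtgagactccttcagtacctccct
Ptprc: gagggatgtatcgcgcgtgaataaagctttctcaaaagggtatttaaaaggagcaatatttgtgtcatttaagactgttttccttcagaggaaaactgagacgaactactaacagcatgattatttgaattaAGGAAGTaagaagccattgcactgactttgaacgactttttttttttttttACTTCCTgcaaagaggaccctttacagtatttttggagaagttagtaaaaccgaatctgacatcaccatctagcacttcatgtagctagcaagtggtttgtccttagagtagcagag
Krt20: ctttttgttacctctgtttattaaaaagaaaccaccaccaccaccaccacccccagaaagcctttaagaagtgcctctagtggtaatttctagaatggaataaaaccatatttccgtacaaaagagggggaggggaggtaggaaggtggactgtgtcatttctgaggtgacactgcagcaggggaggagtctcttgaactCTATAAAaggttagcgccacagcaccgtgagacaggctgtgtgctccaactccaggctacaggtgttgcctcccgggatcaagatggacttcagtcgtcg
Trpv6: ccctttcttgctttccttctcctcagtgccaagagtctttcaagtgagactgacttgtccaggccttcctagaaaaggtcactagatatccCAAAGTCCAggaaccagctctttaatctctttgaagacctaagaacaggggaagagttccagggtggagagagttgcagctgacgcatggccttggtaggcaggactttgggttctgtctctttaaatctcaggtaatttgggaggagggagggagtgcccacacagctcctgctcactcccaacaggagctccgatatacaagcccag
The ETS letters began at positions -93 and -8 of Cd247 and -118 and -67 of Ptprc, counted from the start with no position 0. Among the genes called higher in T cells (defined with the counts that follow) with a promoter in the table, 11.8% (73 of 621) held the ETS letters, against 7.55% (69 of 914) of those called higher in enterocytes, 8.55% of all tested genes and 8.23% of all 27457 promoters. The HNF4 letters were in 0 of 621 and in 9 of 914, or 0.985%, against 0.386% of tested genes and 0.375% of all promoters. The 9 genes include Trpv6 and Lgals4. The CDX letters were in 6.28% and 8.75%, against 6.71% of tested genes and 11.2% of all promoters, and the RUNX letters TGTGGT in 10.8% and 11.2%, against 10.5% and 16.9%. The match in Krt20, CTATAAA, contains TATAAA, the letters of a TATA box. It may therefore be no CDX site, and the CDX shares also count such stretches. Themis and Vil1 held none of the 4 motifs in this window, and Slc26a3 held the ETS letters. These shares are a description without a test, and no motif overlapped another in the 4 sequences shown.

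Across all genes, 5243 passed the filter on low counts and were tested with rat as a block. A gene was called at an adjusted p below 0.05 and a log2 difference above 1 in size. The calls were 787 genes (15% of those tested) higher in T cells and 1215 (23.2%) higher in enterocytes, together 38.2%. The counts of called members in the gene lists below are to be read against these shares. Of these, 494 were higher in T cells in all 6 rats and 784 higher in enterocytes in all 6 rats. The 6 T cell levels all lay above the 6 enterocyte levels for 504 of the tested genes (9.61%), and all below them for 411 (7.84%). A gene near 0 in either cell type passed the filter only through the other, so both counts were partly set by the filter. Scaling set the balance: with library size alone in place of TMM (edgeR's trimmed-mean scaling), the median of all tested genes moved from -0.14 to 0.34 on the log2 scale, and the calls became 1374 higher in T cells (26.2%) and 734 higher in enterocytes (14.0%). Differences are best read relative to that median, and directions given for groups of genes held under both scalings unless stated. Without GR12 the fit called 543 and 854 genes of 4467 tested.

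**Figure D2:**
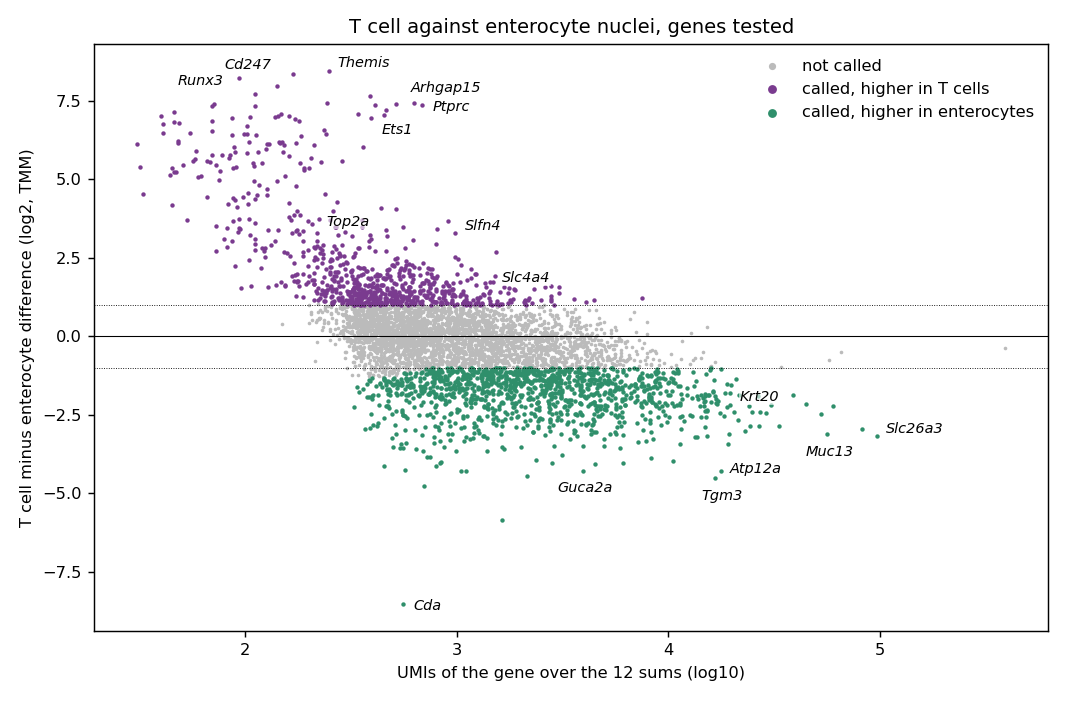
Log2 difference of T cell minus enterocyte sums (vertical axis, TMM scaling) against the UMIs of each gene over the 12 sums (horizontal axis, log10) for the 5243 genes tested; purple and green points are called genes, dotted lines mark a log2 difference of 1 either way. T cell genes reached 8.46 (Themis) at low UMI totals, whereas Tgm3, at -4.51, was the furthest towards enterocytes of the genes with at least 4 UMIs in each cell type and the same sign in all 6 rats; Cda had 0 T cell UMIs, so its point is no measured fold.

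Among called genes with at least 50 UMIs in all, at least 4 in each cell type and the same sign in all 6 rats (clone-named genes left aside), the 15 furthest towards T cells were led by Themis and Cd247. Next came Runx3, a transcription factor of cytotoxic T cells, at 8.24 ± 0.46 (log2, SE). Its levels were 1.20 to 4.82 in T cell sums and 0 to 0.0130 in enterocyte sums. Itgal, the alpha chain of the integrin LFA-1, differed by 7.98 ± 0.47, and Lcp2, the adaptor SLP-76, by 7.72 ± 0.47. St6galnac3, a sialyltransferase, was at 6.13 to 14.6 against 0.00559 to 0.156, a difference of 7.67 ± 0.32. Arhgap15 (a GTPase-activating protein for Rac), Pik3cd (the delta catalytic subunit of PI3 kinase), Skap1 (an adaptor between receptor and integrin), Nlrc3, Ikzf1, Ptprc, Akna, Klri1 (a killer cell lectin-like receptor) and Ikzf3 followed, between 7.09 and 7.44. For all 15 of these genes the T cell and enterocyte levels lay apart in the 12 sums. Their enterocyte levels were near 0, so they passed the filter only through T cells, which set this separation in advance. Edge cases of detection were counted separately: 229 genes had UMIs in T cell nuclei and 0 in all enterocyte nuclei. Among those with most UMIs were Il7r (the interleukin 7 receptor, 23 UMIs in 3 rats), Tnnt3 (16 in 4 rats), Emb (13 in 3 rats) and Il2rg (12, all in GR12). Set against 3 UMIs over the whole enterocyte group, Il7r was at least 215-fold higher in T cells, and Tnnt3 at least 150-fold. Of these UMIs, 18 of 23 for Il7r and 11 of 16 for Tnnt3 were in GR12, and without GR12 both limits were 88.5-fold, on 5 UMIs each. Without GR43 the limit for Il7r was 138-fold.

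Of 24 genes of the T cell receptor and its proximal signalling, 10 passed the filter, all 10 were called higher in T cells, and their median difference was 7.11, with a range from 2.69 to 8.46. A gene so rare in enterocytes passed the filter only through T cells, and the remaining 14 were too sparse to test, including Cd3e with 27 T cell UMIs against 5. The summed level of the 24 genes was 34.3 to 77.1 in T cell sums and 0.252 to 0.754 in enterocyte sums, that is 67.0 to 189 times higher within a rat. None of the 14 costimulatory and inhibitory receptors found in the files could be tested. Their summed level had a lowest value of 3.71 (GR15) and a median of 7.18 in T cell sums, against 0.0671 to 0.223.

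Of 20 transcription factors of the T lineage, 10 were tested and 7 were called higher in T cells (median 5.23), where those with enterocyte levels near 0 passed the filter only through T cells. Ets1 was at 4.83 to 10.8 against 0 to 0.0880 (6.96 ± 0.30), Ikzf1 (Ikaros) at 4.49 to 12.5 against 0.00559 to 0.0668 (7.37 ± 0.34), and Ikzf3 (Aiolos) at 2.57 to 5.94 against 0 to 0.0628 (7.09 ± 0.39). Maf, a factor that also acts outside lymphocytes, was called in the other direction, at 0 to 1.20 in T cell sums and 0.895 to 2.19 in enterocyte sums, a difference of -2.13 ± 0.39 (edgeR adjusted p = 3.2e-07).

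Of leukocyte regulators of actin and small GTPases, 10 of 12 tested were called higher in T cells and 0 in enterocytes (median 5.72). The members near 0 in enterocytes passed the filter only through the T cell sums, so this count is largely set by the filter. Fyb1, an adaptor of integrin activation, differed by 7.07 ± 0.32, the actin-bundling Lcp1 by 7.00 ± 0.39 and the inositol phosphatase Inpp5d by 6.08 ± 0.34. Of 21 cytokine and homing receptors in the files, 4 were tested, and the 3 called higher in T cells entered the test in the same way: Itgal, Itga4 (6.96 ± 0.47), whose integrins bind vessel wall ligands, and Itgae (3.69 ± 0.37), which pairs with beta 7 and binds E-cadherin of the epithelium. Itgae ran from 0.829 to 4.72 in T cell sums and from 0.0606 to 0.117 in enterocyte sums. Its enterocyte ligand gene Cdh1 showed the opposite pattern, at 3.34 to 8.43 against 17.6 to 25.5. Faslg, the death ligand of killer lymphocytes, was the 1 cytotoxic gene tested, also through its T cell level, and was called at 5.65 ± 0.45.

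Of 22 cell cycle genes, 4 were tested. Their enterocyte levels were low (0 to 0.192), so they passed the filter only through T cells and their direction was set by it. Their differences were those of Bub1b (3.52 ± 0.49), Brip1 (3.46 ± 0.46), Top2a (3.30 ± 0.38) and Mki67 (2.83 ± 0.40). The proliferation marker Mki67 was at 0.642 to 2.23 against 0.0404 to 0.192. The summed level of the 22 listed genes was 8.43 to 17.5 in T cell sums and 0.868 to 1.58 in enterocyte sums, with no overlap.

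**Figure D3:**
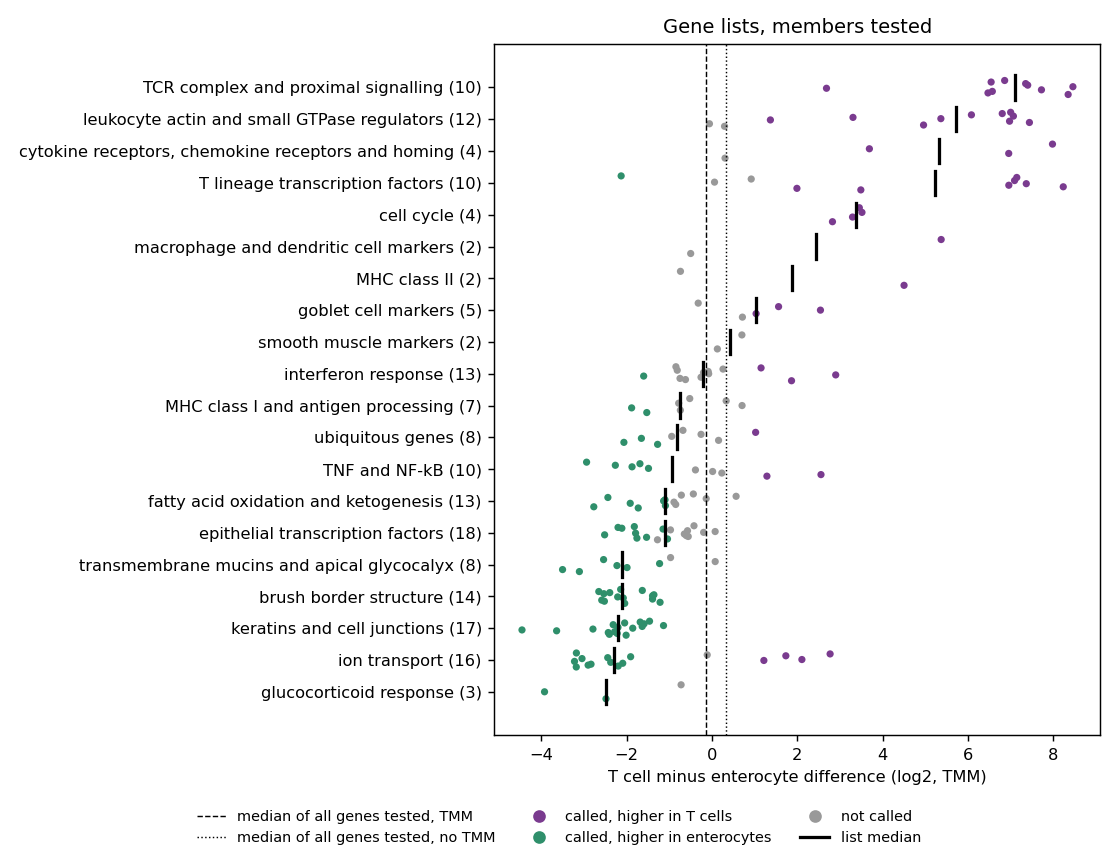
Log2 difference (T cell minus enterocyte, TMM) of each tested member of the gene lists, with the number tested in brackets, ordered by list median (black bars); the dashed and dotted lines are the medians of all 5243 genes with TMM (-0.14) and without it (0.34). T cell receptor genes sat around 7.11, and brush border, keratin and junction genes around -2.1 to -2.2.

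Towards enterocytes, the differences of the leading genes were smaller. Tgm3, a transglutaminase, had levels of 6.03 to 26.2 in enterocyte sums and 0.207 to 4.45 in T cell sums, with a log2 difference of -4.51 ± 0.34 (edgeR adjusted p = 1.2e-37). Atp12a, the proton and potassium pump of the colon, was at 8.93 to 32.7 against 0.124 to 3.61 (-4.29 ± 0.33). Guca2a, the hormone guanylin, was at 1.91 to 4.76 against 0 to 0.943 (-4.28 ± 0.43). None of these 3 overlapped between the cell types, and all were lower in T cells in every rat. Guca2a rested on 9 T cell UMIs and was 0 in the T cell sums of GR13, GR15 and GR41. Fxyd4, a regulator of the sodium pump, differed by -3.96 ± 0.34. The calcium binding protein S100g and the calcium channel Trpv6 differed by -3.87 ± 0.37 and -3.50 ± 0.36. Both overlapped, since the highest T cell level of each was 2.36 (GR44), above the enterocyte level of S100g in GR41 (0.733) and GR13 (1.23) and of Trpv6 in GR41 (2.09). Pdzk1ip1, Mall, Dhrs9 (a retinol dehydrogenase), Il34 (a ligand of the receptor Csf1r), Mep1a (a brush border protease), Rfk (riboflavin kinase), Sectm1b, Ceacam1 and Fam3b completed the 15 largest under the same conditions, from -4.06 to -3.48. Some rested on few T cell UMIs, such as Il34 (5), Mall (7), Dhrs9 (9) and Fam3b (12). In all, 2595 genes had UMIs in enterocytes and 0 in T cell nuclei, where far fewer UMIs were counted. Cda (558 UMIs) and Slc16a3 (468 UMIs) led them, at least 6.62-fold and 5.55-fold lower in T cells when set against 3 UMIs over the T cell group. Without GR12 these limits were 2.64-fold and 2.37-fold, and without GR43 that of Slc16a3 was 3.54-fold.

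Every tested member of both structural lists was called higher in enterocytes. All 14 brush border genes tested were called (median -2.11), including Cdhr5 (-2.58 ± 0.29) and Cdhr2 (-2.52 ± 0.31), the protocadherins that link microvillus tips, Eps8 (-2.53 ± 0.27) at their tips and the actin bundler Pls1 (-2.40 ± 0.29). All 17 keratin and junction genes tested were called as well (median -2.20), among them Cldn7 (-2.79 ± 0.33), Cdh17 (-2.43 ± 0.27), Krt20 (-2.41 ± 0.27) and Cdh1 (-2.22 ± 0.26). Without TMM these counts were 10 and 15 and their medians -1.62 and -1.69. Of mucins and apical glycocalyx genes, 6 of 8 were called higher in enterocytes, led by Ceacam1 and by Muc13, which was at 31.4 to 101 against 3.73 to 18.1.

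Ion transport genes split by direction. Of 16 tested, 11 were called higher in enterocytes and 4 in T cells. Higher in enterocytes were the carbonic anhydrase Car4 (-3.22 ± 0.30), Slc26a3, the water channel Aqp8 (-3.18 ± 0.31) and the sodium-proton exchanger Slc9a3 (-2.90 ± 0.29), all genes of absorption. Higher in T cell nuclei were Kcnn4 (2.77 ± 0.38), a potassium channel that lymphocytes and crypt cells use, and 3 genes known from secretory crypt epithelium: Slc12a2 (2.11 ± 0.30), Slc4a4 (1.73 ± 0.26) and Cftr (1.22 ± 0.31). Cftr ran from 0 to 2.41 in T cell sums and from 0.379 to 1.01 in enterocyte sums, and was 0 in the T cell sum of GR13. Of 5 goblet cell markers tested, Spdef (2.54 ± 0.36), Agr2 (1.56 ± 0.50) and Fcgbp (1.04 ± 0.28) were called higher in T cells and the others were not called. In enterocyte sums Kcnn4 was at 0.0520 to 0.308 and Agr2 at 0.0336 to 0.334. These 2 genes therefore passed the filter largely through T cells, which partly set their direction. Agr2 rested on 17 T cell UMIs, with 0 in GR41. Among all tested genes, 15% were called higher in T cells. The summed level of 7 goblet markers was 4.97 to 8.91 in T cell sums against 2.20 to 4.63. When T cells were limited to the 122 nuclei in which T cell markers were detected and enterocyte markers did not exceed them in UMIs (called T cell marker nuclei here), Cftr, Slc4a4 and Fcgbp were at 0.25, 0.49 and 0.47 and not called, while Slc12a2 (1.52) and Spdef (2.08) still were. The summed goblet markers then overlapped, at 1.84 to 13.5 in T cell sums, and were lower than in enterocytes in GR13 (2.63 against 4.63), GR15 (1.84 against 3.39) and GR44 (2.28 against 3.99).

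Epithelial transcription factors were called in 9 of 18 cases, all higher in enterocytes (median -1.09). Of all tested genes, 23.2% were called higher in enterocytes, which also applies to the lists that follow. Klf4 differed by -2.52 ± 0.30, the fatty acid receptor Pparg by -2.20 ± 0.28, the vitamin D receptor Vdr by -2.11 ± 0.27 and Hnf4a by -1.76 ± 0.26. With the 122 T cell marker nuclei alone, 16 of 17 tested were called, beside 1464 of all 4576 genes tested there. Cdx2 and Hnf4a of this list were among the markers that chose these nuclei, which partly sets this count. Of fatty acid oxidation and ketogenesis genes, 7 of 13 were called, all higher in enterocytes (4 without TMM, where 1 was called higher in T cells). They include Slc16a1, a carrier of butyrate (-2.77 ± 0.30), the thiolase Acaa2 (-2.44 ± 0.40) and Acadl (-1.92 ± 0.31). Among 3 glucocorticoid response genes, Sgk1 (-3.92 ± 0.46), on 7 T cell UMIs, and Tsc22d3, on 3 T cell UMIs, were called higher in enterocytes.

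Immune response genes did not move as groups. Beside the small counts below, 15% of all tested genes were called higher in T cells and 23.2% higher in enterocytes. Of 13 interferon response genes, 3 were called higher in T cells, including Usp18 (2.90 ± 0.44) and Gbp2 (1.15 ± 0.42), and Rsad2 (-1.60 ± 0.63), on 5 T cell UMIs in 2 rats, was called higher in enterocytes. Gbp2 differed by -0.22 in sham rats alone and by 2.69 in PL8177 rats alone. In GR15 its level was higher in enterocytes (0.646 against 0.371). Without TMM Rsad2 was at -0.97 and not called, without GR43 at -1.28 and not called, and in GR44 its level was higher in T cells (1.41 against 0.805). The median of the 13 genes changed sign with the scaling, -0.20 with TMM and 0.46 without. Of 10 genes of TNF and NF-kB signalling, the subunits Rel (2.56 ± 0.41) and Nfkb1 (1.29 ± 0.28) were higher in T cells, and 5 genes, including Fos (-2.27 ± 0.39), Junb (-1.69 ± 0.30) and Birc3 (-1.49 ± 0.27), were higher in enterocytes. For MHC class I, RT1-A1 (-1.53 ± 0.26) and B2m (-1.88 ± 0.26) of 7 tested were called higher in enterocytes (without TMM, 1 was called in each direction). Of 2 class II genes tested, Cd74 (4.50 ± 0.43) was called higher in T cells, and Ctss (-0.74 ± 0.32) was not called. Cd74 was at 0.0112 to 0.129 in enterocyte sums, so it passed the filter only through T cells, which set its direction. RT1 genes have near-identical paralogs, so their counts are uncertain. Of 8 ubiquitous genes, 3 were called higher in enterocytes, including Actb (-1.27 ± 0.26) and Gapdh, and Rplp0 (1.02 ± 0.27) in T cells.

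Depth differed between the cell types. The median UMIs per nucleus were lower in T cells in all 6 rats, with means of 871 ± 667 and 1228 ± 784 (SD, n = 6) and a mean log2 ratio of -0.50 ± 0.38 (SD; exact two-sided sign-flip permutation test over 6 rats, p = 0.03125, the smallest it can give). Thinned to 300 UMIs, a T cell nucleus held more genes, 266 ± 3.76 against 253 ± 8.62 (SD, n = 6; higher in 6 of 6 rats, exact sign-flip permutation p = 0.03125). The 10 most abundant genes took 5.12% to 9.17% of T cell UMIs and 8.17% to 11.9% of enterocyte UMIs, lower in T cells in all 6 rats (exact permutation p = 0.03125, n = 6).

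Enterocyte markers were measurable in the T cell nuclei of every rat. The summed level of 15 markers was 28.1 to 103 in T cell sums and 237 to 442 in enterocyte sums, a ratio within a rat of 0.109 to 0.333, with the lowest in GR12. The 13 T cell markers summed to 23.7 to 56.7 in T cell sums and 0.143 to 0.522 in enterocyte sums. The ratio was not the same for each marker: in GR12 the T cell level was 2.46% of the enterocyte level for Slc26a3 and 3.51% for Aqp8, but 45.6% for Hnf4a and 62.3% for Cdx2. Over the 6 rats the median of this percentage ran from 17.9% for Muc13 to 57.3% for Cdx2 among the 14 markers tested in the fit.

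**Figure D4:**
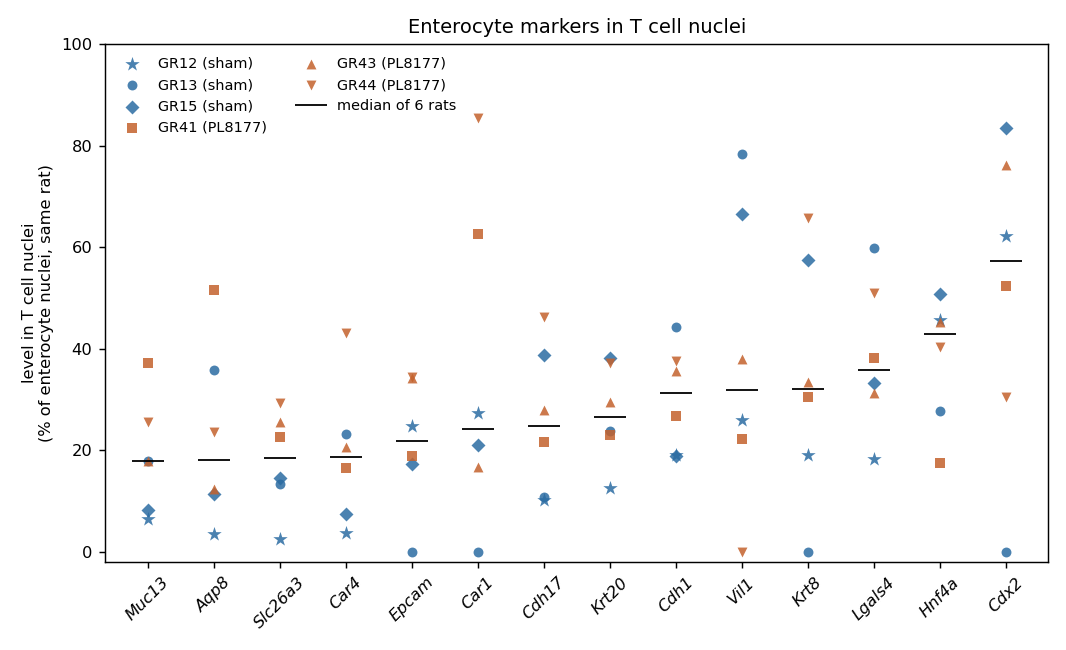
Level of 14 enterocyte markers in T cell nuclei as a percentage of the level in enterocyte nuclei of the same rat; symbols are rats, blue for sham and orange for PL8177, black bars are medians. GR12 (stars) lay at 2.46% for Slc26a3 and at 62.3% for Cdx2.

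Of the 216 T cell nuclei, 86 had more UMIs of enterocyte markers than of T cell markers, and the 122 T cell marker nuclei were 74.3% of the T cell nuclei of GR12 and 41.0% to 51.4% of those of the other rats. With only these 122 nuclei, enterocyte markers summed to 9.22 to 23.0 in T cell sums, and the log2 differences of Slc26a3 and Krt20 were -6.28 and -4.77, which the choice of nuclei by these markers partly sets. The calls were then 450 higher in T cells and 1464 higher in enterocytes. The part of enterocyte RNA in the values of single genes was not tested.

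Markers of other cells were also counted. The 9 B cell markers in the files summed to 7.05 in the T cell sum of GR12 and to 0 to 2.01 in the other 5, against 0.0503 to 0.383 in enterocyte sums, with 1 of the 9 at 0 in T cells. The 11 macrophage and dendritic cell markers summed to 1.93 to 7.42 against 0.453 to 1.65, or 2.19 to 12.4 times higher within a rat, and Flt3 of 2 tested was called (5.37 ± 0.49). At 0 to 0.0390 in enterocyte sums, Flt3 passed the filter only through T cells, which set its direction. Neutrophil and mast cell markers had 4 of 6 at 0 in T cell nuclei. The 7 fibroblast markers summed to 0.943 to 2.41 in T cell sums and to 0.290 to 0.767 in enterocyte sums, higher in T cells in all 6 rats and without overlap. Single fibroblast, endothelial, glial, enteroendocrine and tuft cell markers could not be tested, and 0 of 2 smooth muscle markers tested were called. Their part in the comparison was not tested.

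The same contrast was fitted in each treatment on its own rats, so that no sample was shared. Sham rats gave 759 genes higher in T cells (13.9% of 5471) and 1132 higher in enterocytes (20.7%), together 34.6%, and PL8177 rats 718 (12.1% of 5944) and 928 (15.6%), together 27.7%. Of the genes called higher in T cells in sham rats and tested in PL8177 rats, 374 of 561 (66.7%) were called there too. For enterocytes this was 739 of 1117 (66.2%), and 0 genes were called in opposite directions. In the other direction of reading, 76.8% and 81.9% of the PL8177 calls tested in sham rats were called there. Without GR12, the 2 remaining sham rats gave 175 and 260 calls, and without GR43 the 2 remaining PL8177 rats gave 368 and 622.

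Whether the T cell to enterocyte difference itself differed between treatments was tested as an interaction, which the annotation did not use. At an adjusted p below 0.05, 3 of 5243 genes (0.0572%) were called: Slfn4, RT1-A2 and Clca4. All 3 had a larger T cell minus enterocyte difference in PL8177 rats. Slfn4, a schlafen gene of immune cells, had T cell levels of 3.40, 16.9 and 5.57 in sham rats (GR12, GR13, GR15) and 4.83, 22.8 and 10.8 in PL8177 rats (GR41, GR43, GR44). Its enterocyte levels were 0.851, 4.92 and 0.404 in sham rats and 0.274, 0.228 and 0.585 in PL8177 rats. T cells were higher in all 6 rats, by 1.74 in the fit of sham rats alone and 4.83 in that of PL8177 rats alone, on the log2 scale. The interaction, a separate fit over all 12 sums, gave 3.05 ± 0.47 (SE, edgeR adjusted p = 3.5e-07).

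RT1-A2, an MHC class I gene, had T cell levels of 4.44, 36.1 and 6.31 in sham and 6.03, 4.33 and 25.9 in PL8177 rats. Its enterocyte levels were 22.2, 37.2 and 26.0 in sham and 3.89, 0.708 and 23.1 in PL8177 rats. T cells were lower in the 3 sham rats, though GR13 was close to equal, and higher in the 3 PL8177 rats, with a difference between treatments of 2.71 ± 0.46 (edgeR adjusted p = 9.8e-06). The enterocyte level spanned 0.708 to 37.2 between rats, and the related RT1-A1 spanned 3.56 to 60.4. Clca4, of a family of secreted calcium-activated channel regulators, was higher in enterocytes throughout. Its T cell levels were 0.705, 2.41 and 0.371 in sham and 10.1, 6.74 and 3.30 in PL8177 rats, which did not overlap, against enterocyte levels of 17.1, 13.5 and 12.7 in sham and 38.9, 20.9 and 10.1 in PL8177 rats. The difference was -4.80 in the fit of sham rats alone and -2.16 in that of PL8177 rats alone. The interaction fit gave 2.61 ± 0.59 between treatments (edgeR adjusted p = 0.017).

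Next in order were Slc26a3 (1.96 ± 0.48) and Srgn (3.31 ± 0.82), each with an edgeR adjusted p of 0.056. Slc26a3 in T cell sums was 2.11, 19.3 and 10.8 in sham and 18.1, 21.8 and 35.4 in PL8177 rats. The summed enterocyte markers in T cell nuclei overlapped between treatments, at 28.1, 93.9 and 60.1 in sham and 62.8, 73.3 and 103 in PL8177 rats, and their part in the values of Clca4 and Slc26a3 was not tested. With T cell marker nuclei only, the adjusted p was 0.079 for Slfn4 and 1 for RT1-A2 and Clca4. Without GR43 edgeR called 0 genes, with 237 at an unadjusted p below 0.05 and adjusted p-values of 0.21 to 0.41 for Slfn4, RT1-A2 and Clca4, and the adjusted p of Clca4 was 0.44 without GR12, 0.075 without GR15 and 0.098 without GR44 (edgeR). DESeq2 called 0 of 5243 genes, with 129 at an unadjusted p below 0.05, and edgeR without the rat block also called 0 of 5243, with 202. The main fit had 243 such genes, and the fit without GR43 tested 5230. At that p chance alone gives about 1 in 20 of the genes tested, and none of these counts exceeded it.

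**Figure D5:**
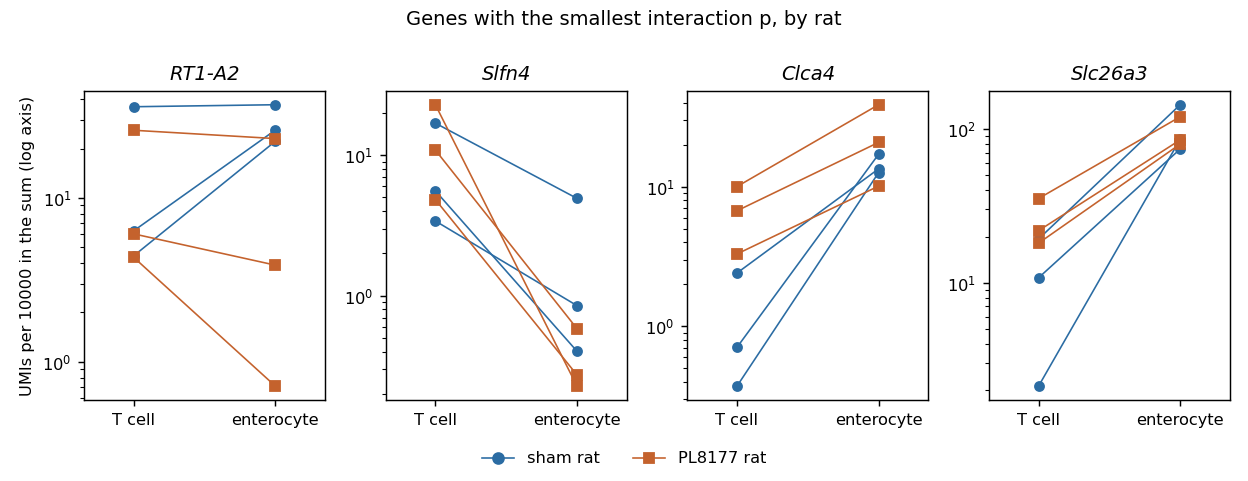
Levels (UMIs per 10000 in a sum, log axes) of the 3 genes called in the interaction and of Slc26a3, which was not called; lines join the 2 cell types of a rat, blue circles for sham and orange squares for PL8177. RT1-A2 was lower in T cells in sham rats and higher in PL8177 rats, and Slfn4 was higher in T cells in all 6 rats.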

How the data were processed

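Nuclei of flash-frozen rat colon were sequenced as 3' single-nucleus libraries. The authors counted reads with Cell Ranger 6.0.1 on the rat assembly Rnor 6.0, introns included, removed empty droplets with CellBender, and integrated and clustered the nuclei in Seurat 4.0.3 to name cell types. The deposited files hold whole-number UMI counts per gene and nucleus, 17388 genes, 1 file per cell type and treatment. Which doublet caller was used is not given in the sources used here, and none was run. No mitochondrially encoded gene was analysed here.

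Counts were summed per rat tag and cell type into 12 sums (8307 to 4123319 UMIs). The tags in the nucleus names were read as rats, and same-tag sums as pairs from 1 animal. The correlation of their deviations from the group means was 0.0598 to 0.268. edgeR 4.0.16 (R 4.3.3) fitted quasi-likelihood models with TMM scaling, filterByExpr by cell type and rat as a block. The p-values were Benjamini-Hochberg adjusted over all genes tested. The SE beside an edgeR log2 difference is approximate: the size of the difference divided by the square root of its quasi-likelihood F. A call needed an adjusted p below 0.05 and a log2 difference above 1 in size. The interaction call needed the adjusted p alone. In simulated counts with log2 changes of 3, 97.9% of changed genes were recovered for T cells against enterocytes (5098 genes) and 65.4% for the interaction (5036 genes). Both cell types had the same gene profile there, and recovery was counted on the adjusted p alone. These shares therefore do not apply to smaller changes or to genes near 0 in either cell type. Single values were tested by exact two-sided sign-flip permutation over rats. DESeq2 1.42.0, no TMM, no filter, no block, thinned enterocyte sums, at least 500 genes per nucleus, T cell marker nuclei and leaving out each rat were the alternatives.

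The cell types, gene lists and members were chosen with earlier results of these data known. Genes named were the 6 markers, the 15 largest called differences per direction (at least 50 UMIs in all, 4 in each cell type, the same sign in 6 rats, no clone names), the 5 genes per direction with most UMIs and 0 in the other cell type, up to 4 per list by p with members called against their list, and the genes leading the interaction. Cd3e, Cdx2 and Gapdh fell outside this rule and were named after their values were seen. Promoters are from RefSeq (GRCr8). They were matched by symbol for 4142 of 5243 tested genes. A few genes that this rule names are not reported here. Placebo files were not used.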

Additional observations from a re-analysis of the deposited data

Results flagged for a closer look

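Over the 6 rats, 77 ratios of T cell to enterocyte level (gene lists and named genes without a 0) were checked for a rat far from the other 5, and 7 were found, where chance gives about 1 in 20. A further 46 named genes had a 0 in some sum and were not checked. GR12 was the outlying rat for Slc26a3, with a log2 ratio of -5.35 against -2.91 to -1.77 in the others, for Atp12a (-6.17 against -4.14 to -2.95), for the summed brush border genes (-2.17 against -1.53 to -1.19) and for the summed keratins and junction genes (-2.26 against -1.71 to -1.43). GR12 also had the highest share of T cell marker nuclei (74.3%) and the highest T cell UMI total, and the part of these in its ratios was not tested.

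GR15 had the lowest ratio for costimulatory and inhibitory receptors (4.06 against 5.69 to 6.58) and the highest for cytotoxic effectors (8.37 against 6.10 to 6.76). Inpp5d was furthest from the others in GR44 (9.27 against 5.76 to 6.74). The enterocyte side of these ratios rests on few UMIs.

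In edgeR's test of the interaction, the difference between T cells and enterocytes was called as different between PL8177 and sham rats for Slfn4 (3.05), RT1-A2 (2.71) and Clca4 (2.61, all on the log2 scale). DESeq2 called 0 genes (129 of 5243 at an unadjusted p below 0.05), as did edgeR without the replicate block (202 of 5243) and edgeR without GR43 (237 of 5230). None of these counts exceeded the 1 in 20 that chance alone gives at that p.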

How the results depend on the processing

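In none of the alternatives was a gene of the 2002 called in the opposite direction. The genes higher in T cells (787) became 450 with T cell marker nuclei, 73 with enterocyte sums thinned to the T cell total (387 genes tested), 1374 without TMM and 1898 without the filter. Those higher in enterocytes (1215) became 94 when thinned, 734 without TMM, 2247 without the filter and 801 with at least 500 genes per nucleus. Without TMM all 787 remained called in T cells and 734 of 1215 in enterocytes. Without the filter 431 of the 787 and all 1215 kept the call, so most of the 1898 were other genes. When thinned, only 22 of the 787 and 198 of the 1215 could be tested, and 22 and 94 of them kept the call. Leaving out 1 rat gave 543 to 923 and 854 to 1299, lowest without GR12 for both.

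The interaction (3 genes) gave 0 with DESeq2, 1 with T cell marker nuclei (Srgn), 5 without TMM, 5 without the filter, and 0 (without GR43) to 8 (without GR13) when 1 rat was left out. The genes called in sham rats alone (1891) became 252 thinned, 3097 without the filter, 1098 with at least 500 genes and 435 (without GR12) to 2701 (without GR13) by left-out rat. The genes called in PL8177 rats alone (1646) became 1086 with DESeq2, 158 thinned and 990 to 1358 by left-out rat, lowest without GR43. The left-out fits of a treatment alone rest on 2 rats.

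Without the replicate block that pairs the sums of a rat, 752 and 1170 genes were called, 719 and 1119 of them shared with the paired fit, and the interaction gave 0.

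The log2 ratio of median UMIs per nucleus was -0.26 with at least 500 genes (exact permutation p = 0.3125, n = 6) and -0.58 to -0.42 by left-out rat. That of genes at 300 UMIs was 0.066 to 0.084. With 5 rats the exact permutation p cannot go below 0.0625. The mean enterocyte marker level in T cell nuclei, 70.2, was 16.5 in T cell marker nuclei and 63.6 to 78.7 by left-out rat. The T cell marker level in enterocytes was 0.265 to 0.340. The lower limits for genes at 0 in the other cell type were also computed without each rat, an alternative chosen after seeing the data. RT1-A2 turned from -0.74 to 0.061 when thinned (not called in either). Of the other values of named genes, 528 kept direction and call, 29 lost and 2 gained the call, and by left-out rat 548, 9 and 1. Why they changed was not tested. The share of mitochondrial UMIs was not computed. T cell depth (8307 UMIs in GR13) limits what could be tested.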
